A study of Mus musculus with 3 samples.

Results

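The 39 Hox genes of the mouse and their Meis and Pbx cofactors were read out in control blood stem and progenitor cells. The members were the gene rows whose symbol was a numbered gene of the Hoxa, Hoxb, Hoxc or Hoxd cluster (11, 10, 9 and 9 rows), or a numbered gene of the Meis (3 rows) or Pbx (4 rows) family, in all 46 of 24421 gene rows. The rule that picked them used their symbols and no measured value. The 3 libraries came from hematopoietic stem and progenitor cells (HSPCs) of C57BL/6 mouse bone marrow, sorted as cells without lineage markers that were positive for c-Kit and Sca-1. All 3 were controls with both alleles of Capicua (Cic), a transcriptional repressor, floxed, and all had received tamoxifen; the labels state no Cre for them, no age, and not whether each library was a separate animal. The study concerned the loss of Cic in early T cell development. The other mouse group was not analysed here, so there is no contrast between genotypes, and the spread between the 3 libraries may be technical.

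Hox genes encode homeodomain transcription factors. They lie in 4 clusters in which every gene is read in the same direction, and paralogue numbers, shared between clusters, run from the 3′ end (low) to the 5′ end (high). In embryos the order along a cluster matches the order along the body axis, and in blood a subset of Hox genes is active in stem and progenitor cells and is turned down as cells mature. Meis and Pbx proteins belong to the TALE class of homeodomain factors, bind DNA together with Hox proteins, and sharpen their choice of sites. Hoxa9 with Meis1 is a well-known pair in leukaemia.

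The deposited values are read counts. They were scaled to CPM, the counts a gene would have if every library had the same gene-row total; the totals were 30718562, 25097769 and 30032593 counts in libraries 1, 2 and 3. A count of 0 in a library allows up to 3 counts, which is 0.0977, 0.120 and 0.0999 CPM in these libraries, for counting error only. Members held 0.0879, 0.0896 and 0.0863% of gene counts. Genes of the sort and of stem cells were present in every library, with all 8 listed above 1 CPM (Kit, for c-Kit, averaged 826 ± 71.0 CPM and Ly6a, the Sca-1 gene, 103 ± 9.504 CPM; SD, n = 3). All 8 granulocyte and monocyte markers and all 6 B cell markers also reached a mean of 1 CPM, as did 53.1% of all gene rows. The B cell markers summed to 55.8, 60.1 and 65.1 CPM. Markers of mature T cells summed to 0.977, 0.518 and 1.70 CPM, and of 6 erythroid markers 4 reached 1 CPM, with the haemoglobin genes Hba-a1 and Hbb-bt at 0 in all 3. Of 10 stromal and endothelial markers 4 reached 1 CPM, and their sum was 94.2, 76.7 and 70.1 CPM, most of it from Pdgfrb at 41.4 ± 5.42 and Emcn at 24.8 ± 6.60 CPM, with Lepr and Col1a2 as the others, Col3a1 and Adipoq at 0, and Col1a1 at 0, 3 and 1 counts.

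Promoter sequences are shown for pairs of genes that share a paralogue number and differ in level; whether sequence bears on level was not tested. They span 250 bases before to 50 bases after a start given by RefSeq (GRCm38.p6), run 5′ to 3′ on the gene's strand, and have every CpG dinucleotide in capitals. Hoxa9 (chr6:52227321-52227620, minus strand, 3641 counts over the 3 libraries) is set against Hoxd9 (chr2:74697513-74697812, plus strand, 0 counts), and Hoxb4 (chr11:96318017-96318316, plus strand, 1191 counts) against Hoxd4 (chr2:74721728-74722027, plus strand, 0 counts). Meis1 (chr11:19018920-19019219, minus strand) is the higher of the Meis genes.
Hoxa9: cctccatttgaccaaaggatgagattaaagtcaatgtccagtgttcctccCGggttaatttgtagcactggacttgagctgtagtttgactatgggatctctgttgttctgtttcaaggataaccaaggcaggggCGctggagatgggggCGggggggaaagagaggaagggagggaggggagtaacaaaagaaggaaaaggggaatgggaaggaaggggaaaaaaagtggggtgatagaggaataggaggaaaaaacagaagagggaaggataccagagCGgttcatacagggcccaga
Hoxd9: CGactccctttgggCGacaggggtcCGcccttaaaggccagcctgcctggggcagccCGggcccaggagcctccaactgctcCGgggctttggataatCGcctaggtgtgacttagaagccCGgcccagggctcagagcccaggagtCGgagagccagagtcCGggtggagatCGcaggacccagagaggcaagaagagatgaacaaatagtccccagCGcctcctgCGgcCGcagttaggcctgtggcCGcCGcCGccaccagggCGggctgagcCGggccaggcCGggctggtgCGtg
Hoxb4: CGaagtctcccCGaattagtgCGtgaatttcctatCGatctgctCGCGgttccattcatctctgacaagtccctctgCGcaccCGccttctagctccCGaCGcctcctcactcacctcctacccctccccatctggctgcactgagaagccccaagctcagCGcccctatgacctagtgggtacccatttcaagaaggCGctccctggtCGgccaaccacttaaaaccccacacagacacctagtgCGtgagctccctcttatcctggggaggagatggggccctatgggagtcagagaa
Hoxd4: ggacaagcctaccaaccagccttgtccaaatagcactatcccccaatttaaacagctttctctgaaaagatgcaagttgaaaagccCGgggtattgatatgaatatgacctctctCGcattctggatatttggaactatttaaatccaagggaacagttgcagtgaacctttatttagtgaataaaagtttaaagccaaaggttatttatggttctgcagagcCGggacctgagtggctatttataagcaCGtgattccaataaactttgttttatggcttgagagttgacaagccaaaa
Meis1: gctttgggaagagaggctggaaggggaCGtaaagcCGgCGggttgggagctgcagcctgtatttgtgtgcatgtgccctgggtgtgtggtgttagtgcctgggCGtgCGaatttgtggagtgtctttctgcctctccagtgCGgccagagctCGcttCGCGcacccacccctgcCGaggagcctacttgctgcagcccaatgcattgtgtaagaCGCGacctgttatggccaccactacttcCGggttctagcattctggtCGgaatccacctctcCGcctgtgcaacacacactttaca
Hoxa9 has 4 CpGs in this window and Hoxd9 has 20, so the gene with the higher level has fewer. In group 4 the order is the other way, with 14 CpGs for Hoxb4, 9 for Hoxc4 (11 counts over the 3 libraries) and 4 for Hoxd4. The windows of Hoxa9, Hoxc4 and Hoxd4 lie inside the annotated genes, away from their outer 5′ ends (52231089, 103018934 and 74711929). Windows at other starts could hold other numbers of CpGs. Meis1 has 15. RefSeq promoters were matched for 27 of the 46 members, with 29 promoters in all. Their median was 15 CpGs, against 7 over the 32851 promoters of 300 bases in the table. For Hox genes at a mean of 1 CPM or more the median was 14 (4 to 29, 9 promoters), and for Hox genes with no count in any library it was 20 (4 to 45, 10 promoters), so the ranges overlapped. The first set covered 8 of 13 such genes, all of the Hoxa cluster except Hoxb4. The second held Hoxd genes with Hoxa13 and Hoxb1, and no Hoxc gene, so cluster and level cannot be told apart. The letters TATAAA, searched on both strands like the motifs below, were found in 5 of the 29 promoters (Hoxa10, Hoxb8, Hoxd4, Hoxd13 and Meis2) and in 13.6% of all. TGATNNAT, a form of the joint Hox and Pbx site, was found in 4 (Hoxa2, Hoxb1, Hoxb8 and Hoxd11), against 8.85% of all promoters, and TGACAG, a Meis site, in Hoxa2 and Hoxa3, against 19.2% of all. Matches of different motifs could overlap, and a match is a description of letters only.

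Hox transcripts came almost entirely from the Hoxa and Hoxb clusters. Hoxa members summed to 126, 119 and 105 CPM in libraries 1, 2 and 3 and held 76.2 ± 1.53% of all Hox CPM (SD, n = 3). The Hoxb members summed to 42.4, 35.3 and 29.7 CPM, or 23.3 ± 1.64%. From the Hoxc cluster came 18, 20 and 23 counts, or 0.475 ± 0.114%, and from the Hoxd cluster 1, 3 and 0 counts, all of Hoxd11. In each library the share of Hoxa lay above that of Hoxb, and both lay above that of Hoxc. Of the 46 members 19 reached a mean of 1 CPM (41.3%), against 53.1% of all gene rows. These were 8 of 11 Hoxa, 5 of 10 Hoxb, none of 9 Hoxc, none of 9 Hoxd, 2 of 3 Meis and all 4 Pbx genes. A further 13 members had at least 1 count and 14 had none in any library. In these bulk samples, a low level in every cell and a higher level in few cells cannot be told apart.

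**Figure D1:**
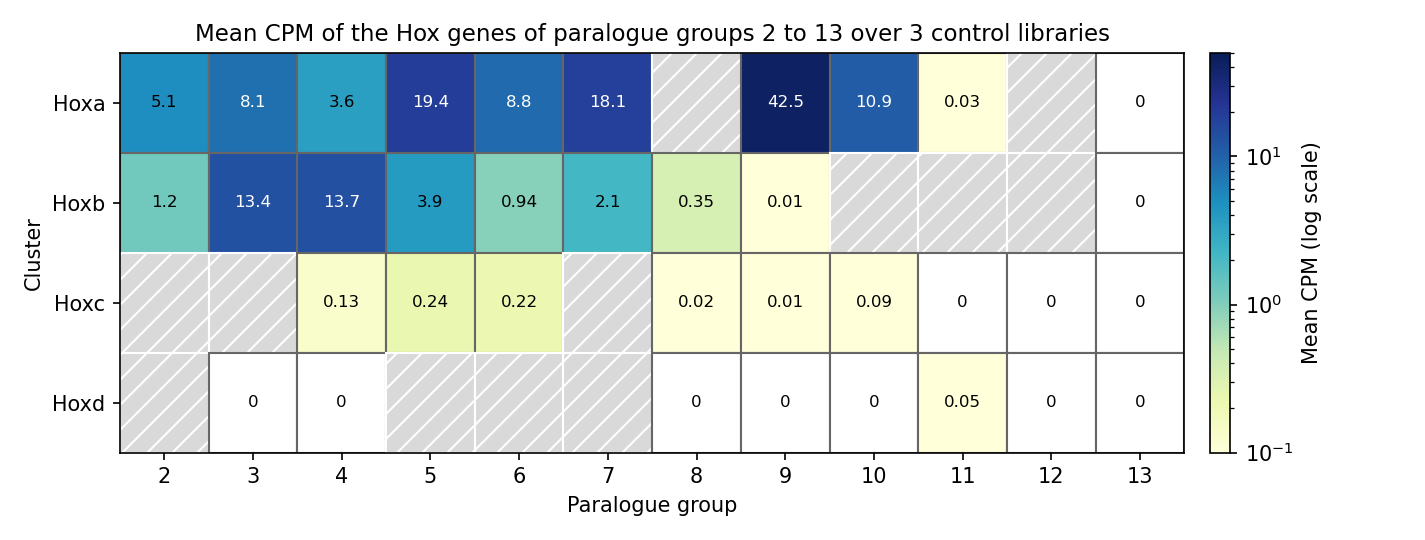
Mean CPM of the Hox genes of paralogue groups 2 to 13 over the 3 control libraries, with clusters as rows and paralogue groups as columns. The colour scale is logarithmic, white cells hold genes with no count in any library, and hatched cells mark numbers with no row in the files. Cells at 1 CPM or more lie in Hoxa2 to Hoxa10 and in Hoxb2 to Hoxb7 apart from Hoxb6, with the highest value, 42.5 CPM, at Hoxa9.

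Position along the Hoxa cluster (chromosome 6, mm10) separated a block of expressed genes from a nearly silent 5′ end. Toward the 3′ end, Hoxa2 (52162417 to 52164831), which patterns the hindbrain and neural crest, had 6.51, 4.62 and 4.03 CPM in libraries 1, 2 and 3. Every further Hoxa gene up to Hoxa10 had a mean above 3 CPM. At the 5′ end, Hoxa10 (52231197 to 52240854) had 372, 269 and 299 counts, and its neighbour Hoxa11 (52242106 to 52245810), a limb and urogenital gene, had 0, 2 and 0. Hoxa13 (52257694 to 52260880), a gene of the limb tips and hindgut, had none. The lowest value of Hoxa10, 9.96 CPM, stood against a highest value of 0.0797 CPM for Hoxa11.

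Hoxa9 (52223100 to 52231089, ENSMUSG00000038227.15), which supports stem cell renewal and is driven high in many leukaemias, had the highest CPM of the Hox genes. It was at 46.1, 44.9 and 36.5 CPM in libraries 1, 2 and 3, a mean of 42.5 ± 5.22 CPM, rank 4861 of all gene rows. Hoxa9 held 99.94% of the CPM of paralogue group 9, where Hoxb9 had 1 count in library 3, Hoxc9 1 count in library 2 and Hoxd9 none.
Hoxa5 (52201754 to 52204587), needed for lung development, followed in the cluster at 21.5, 19.9 and 16.6 CPM. Hoxa7 (52214491 to 52221854) had 16.9, 16.97 and 20.5 CPM. It differed from most of the cluster in that its highest value was in library 3. Hoxa10, a regulator of myeloid and stem cell growth, had 12.1, 10.7 and 9.96 CPM. Hoxa6 (52206288 to 52208722) was highest in library 2, with 237, 276 and 231 counts. Hoxa3 (52169062 to 52213336), needed for the thymus and parathyroid, had 10.03, 8.01 and 6.16 CPM. Hoxa4 (52189671 to 52191753) had 4.69, 3.11 and 2.86 CPM. Both were highest in library 1, like Hoxa2, Hoxa5, Hoxa9 and Hoxa10.

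The Hoxb cluster (chromosome 11, mm10) had its highest levels at Hoxb4 and Hoxb3. Hoxb4 (96318267 to 96321638), known for expanding stem cells when forced on, was at 15.9, 11.9 and 13.52 CPM in libraries 1, 2 and 3. Its neighbour Hoxb3 (96323326 to 96347930) was at 13.4, 17.2 and 9.56 CPM, and the ranges of these genes overlapped. Hoxb5 (96303336 to 96306121), a reporter gene of long-term stem cells in mice, was lower at 4.49, 3.39 and 3.96 CPM. Hoxb2 had 66, 25 and 18 counts, and Hoxb6 averaged 0.944 ± 0.205 CPM, just under the 1 CPM line. Hoxb1, at the 3′ end, and Hoxb13, at the 5′ end, had no count.

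Paralogue groups 8 and 11 to 13 were close to empty. Group 8 summed to 0.373 ± 0.471 CPM, 94.0% of it Hoxb8. Groups 11 to 13, with 9 genes, had 1, 5 and 0 counts in all, and groups 12 and 13 had none. Groups 9 and 10 held 34.95% of Hox CPM, with Hoxa9 and Hoxa10 as the members above 1 CPM. Groups 4 to 8 held 46.9% and groups 1 to 3 held 18.1%. Per kilobase of exons the shares were 19.4% for groups 9 and 10, 66.95% for groups 4 to 8 and 13.6% for groups 1 to 3. Which cluster led changed with the number. In groups 3 and 4 the Hoxb gene held most of the CPM (Hoxb3 62.4%, Hoxb4 78.9%), whereas in groups 2, 5, 6, 7, 9 and 10 it was the Hoxa gene, with 80.2 to 99.94%. In group 3, Hoxb3 lay above Hoxa3 in each library.

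Single libraries made up several of the trace signals in the Hoxc cluster (chromosome 15). Hoxc10 had 0, 7 and 0 counts, and Hoxc5 had 0, 1 and 20. Hoxc6 had 11, 7 and 1 counts and Hoxc4 had 7, 4 and 0. Hoxc8 and Hoxc9 had 2 counts and 1 count in all, and Hoxc11, Hoxc12 and Hoxc13 had none. None of these reached 1 CPM in any library. Exons of Hoxc5 and Hoxc10 overlap by 166 bases in the annotation, so reads there could be split or dropped.

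Among the Meis genes, 1 dominated. Meis1 (chromosome 11, 18879817 to 19018985), which is required for stem cell maintenance, was at 263, 286 and 236 CPM in libraries 1, 2 and 3, a mean of 262 ± 25.4 CPM (SD, n = 3) and rank 626. It held 99.2 ± 0.369% of Meis CPM. Meis3 (chromosome 7) had 26, 67 and 37 counts and Meis2 (chromosome 2) had 11, 19 and 13.
Of the Pbx genes, Pbx2 (chromosome 17) was at 48.7, 42.0 and 45.1 CPM. Pbx3 (chromosome 2), which partners Hoxa9 in leukaemia, was at 14.5, 10.2 and 12.6 CPM, and Pbx4 (chromosome 8) was at 9.18, 8.85 and 6.93 CPM. These 3 Pbx genes were highest in library 1.

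Levels of different genes were compared per kilobase of annotated exons, since long transcripts collect more counts. On this scale Meis1 had 24.8 ± 2.41 CPM per kb (SD, n = 3). Pbx2 followed at 12.4 ± 0.922, below Meis1 in every library. Hoxa5 at 10.3 ± 1.33 and Hoxa6 at 10.1 ± 2.18 CPM per kb did not differ beyond their spread, and both lay above Hoxa9 at 7.62 ± 0.936 CPM per kb. Then came Hoxa7 at 6.30 ± 0.708 and Hoxb4 at 5.36 ± 0.779 CPM per kb, whose ranges overlapped. In this order, 6 neighbouring pairs had ranges that did not overlap: Meis1 above Pbx2, Pbx2 above Hoxa5, Hoxa6 above Hoxa9, Hoxb4 above Pbx4, Pbx3 above Hoxb5, and Hoxa3 above Meis3.

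**Figure D2:**
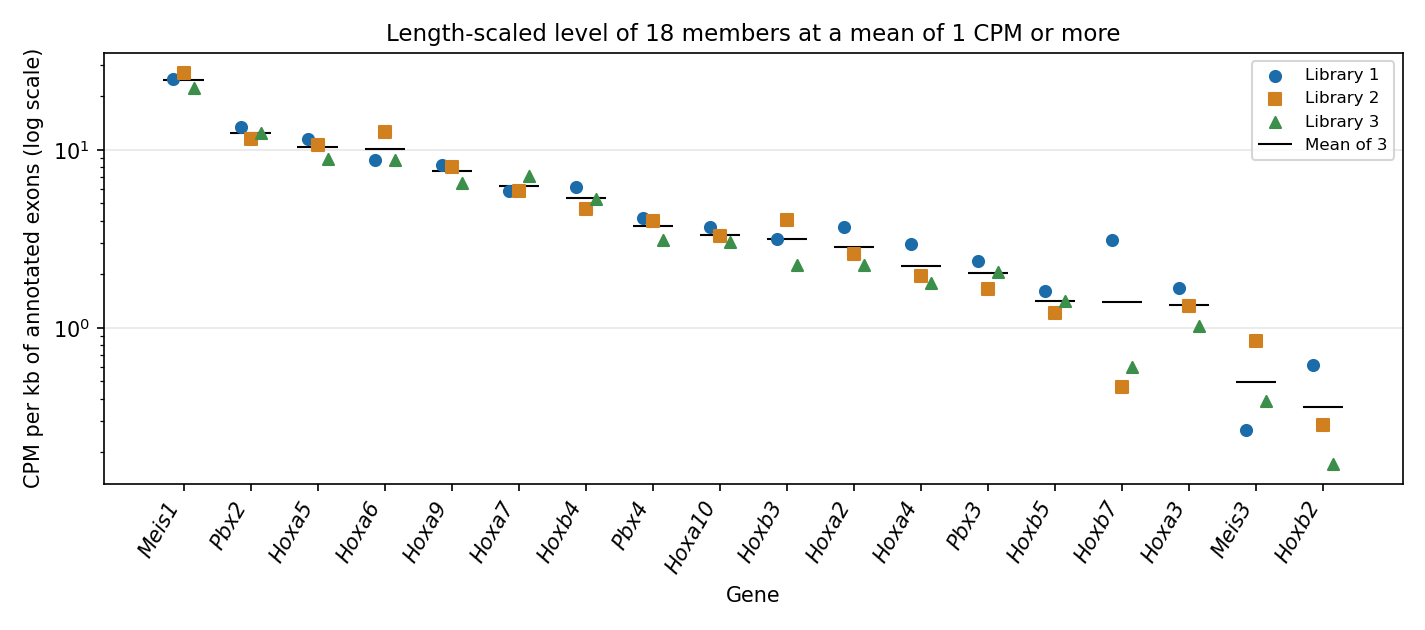
CPM per kilobase of annotated exons, on a log axis, for 18 of the 19 members that reached 1 CPM on average, ordered by mean (black line), with 1 point per control library. Meis1 stands at the left at 24.8, and Hoxb7, Meis3 and Hoxb2 show the widest spread between libraries.

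The order depended on the transcript model. The annotated exons of Hoxa9 add up to 5580 bases and its longest transcript to 3226, whereas for Hoxa5 both are 1877. Divided by the longest transcript, Hoxa9 had 13.2 and Hoxa5 10.3 CPM per kb, which put Hoxa9 first among the Hox genes. Per kilobase of exons, the ratio of Meis1 to Hoxa9 was 3.02, 3.38 and 3.42 in libraries 1, 2 and 3. Hoxa genes summed to 3.67 ± 0.577 times the Hoxb genes per kilobase.

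Most members differed between the control libraries by more than read counting gives, as did most genes. Of the 19 members at 1 CPM or more, 18 had counts that differed between the libraries beyond read-counting noise (chi-square test, Benjamini-Hochberg adjusted over 12965 genes), against 82.6% of all genes tested. Hoxb5 was the exception, with an adjusted p of 0.136. None was more variable than genes of similar abundance by edgeR's quasi-likelihood test, which called 0.00771% of genes. At an unadjusted p under 0.05 this test had 1 member, Hoxb7, and 593 of the 12965 genes. DESeq2 marked no member as a dispersion outlier, and 0.231% of genes. Without library 1 the chi-square test called 11 of 18 members, against 51.4% of genes tested.

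Library 1 held the highest value for 13 of the 19 members, against 31.9% of genes tested. Library 2 did so for 4, against 35.6%, and library 3 for 2, Hoxa7 among them, against 32.5%. In log2(CPM + 0.5), the median member of library 1 lay 0.22 above the mean of the other libraries, while the median of all genes lay at -0.05. In library 3 the median member lay at -0.25 and that of all genes at 0.00, and in library 2 the values were -0.03 and 0.05. Of the 13 Hox genes, 11 had a positive value in library 1 (median 0.26), and of the 6 Meis and Pbx genes 4 did (median 0.09), against 43.7% of all genes tested. This difference between the classes was not tested. The 8 granulocyte and monocyte markers summed to 960.4, 1871 and 2986 CPM in libraries 1, 2 and 3, and the 8 sort and stem cell markers to 2749, 2496 and 2380 CPM. Within the first list, the early granule genes Mpo, Elane, Ctsg and Prtn3 were lowest in library 1 (Mpo at 683, 1544 and 2403 CPM). The other genes of that list, Ngp, S100a8, S100a9 and Lcn2, were highest there. Within the sort and stem cell list, Kit, Flt3, Procr and Hlf were highest in library 1. Cd34, Slamf1 and Mecom were highest in library 2, and Ly6a in library 3 (95.5, 99.3 and 114 CPM in libraries 1, 2 and 3). The part of these markers in the Hox values was not tested.

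**Figure D3:**
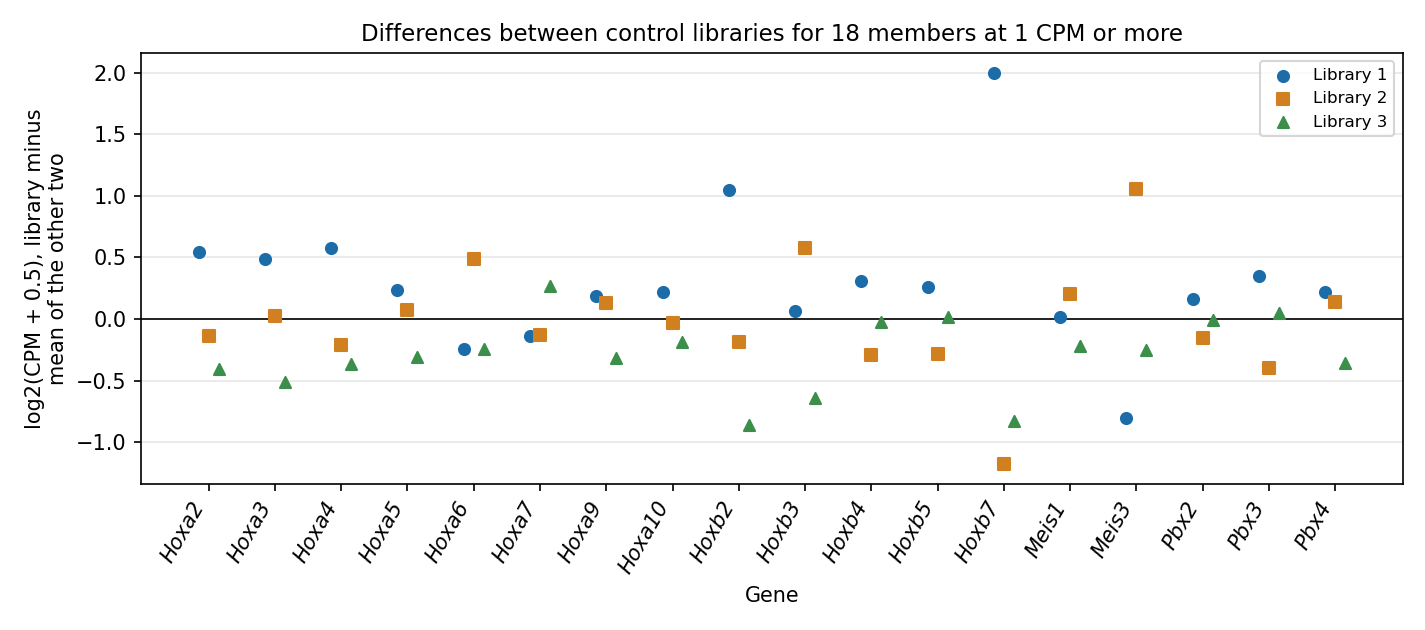
Difference in log2(CPM + 0.5) between each library and the mean of the other libraries, for 18 of the 19 members at 1 CPM or more. Over all 19, library 1 lies above the zero line for 15 (43.7% of all genes do) and library 3 below it for 15. Of all genes tested, 50.8% lie above the line in library 3. Hoxb7 reaches 2.00 in library 1.

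**Figure D4:**
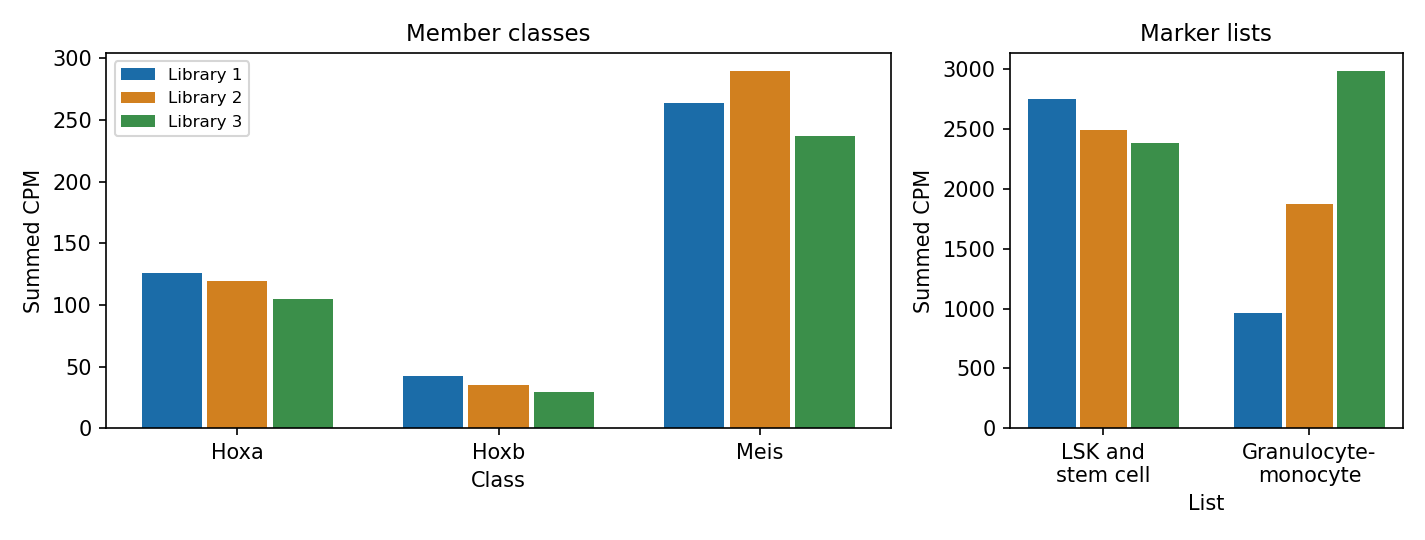
Summed CPM of the Hoxa, Hoxb and Meis members (left) and of the sort and stem cell (LSK, for the Lin- Sca-1+ c-Kit+ sort) and the granulocyte and monocyte marker lists (right), with 1 bar per control library. Hoxa sums were 126, 119 and 105 CPM in libraries 1, 2 and 3, and the granulocyte and monocyte sums 960.4, 1871 and 2986 CPM. Within the latter list, Ngp, S100a8, S100a9 and Lcn2 went against the sum and were highest in library 1. Of the sort and stem cell list, Ly6a, Cd34, Slamf1 and Mecom were highest in library 2 or 3.

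Hoxb7 and its neighbour Hoxb8 stood out in library 1. Hoxb7 (chromosome 11, 96286623 to 96290162) had 147, 18 and 28 counts, or 4.79, 0.717 and 0.932 CPM in libraries 1, 2 and 3. The difference from counting noise had an adjusted p of 1.79e-29 by the chi-square test, but the adjusted p of edgeR's quasi-likelihood test was 0.983. Hoxb8 (96281905 to 96285315), which holds back differentiation when forced on in myeloid progenitors, had 28, 1 and 3 counts. Hoxb2 was 3.58-fold, Hoxb7 6.67-fold and Meis3 3.15-fold higher in the highest than in the lowest library, and these 3 of 19 members passed 2-fold, against 11.7% of genes tested. Meis3 was highest in library 2. Without library 1, the means of Hoxb2 and Hoxb7 were 0.798 and 0.825 CPM, so both lay under the 1 CPM line, and Hoxb6 lay above it at 1.06 CPM.
Other rows were also highest in library 1. Skap1, an adaptor protein gene beyond the 3′ end of the Hoxb cluster, had 44, 4 and 3 counts. Ngp, of the granulocyte and monocyte list, was at 80.1, 15.4 and 34.1 CPM. The red cell gene Slc4a1 was at 13.2, 1.43 and 2.46 CPM. The stromal marker Pdgfra had 43, 0 and 3 counts, whereas Col1a2 and Lepr of the same list were highest in library 2 and the endothelial Cdh5 had 0, 14 and 7 counts. Their part in the Hoxb7 value was not tested.

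Of 31 listed RNAs and neighbours of the clusters 27 had a row, 10 of these reached 1 CPM and 12 had no count. Non-coding rows had counts inside the Hoxa and Hoxb clusters and none inside the Hoxc and Hoxd clusters. In the Hoxa cluster, the antisense transcripts Hoxaas2 and Hoxaas3 averaged 1.41 ± 0.313 and 1.55 ± 0.561 CPM, and Hotairm1, near the 3′ end, had 6, 25 and 14 counts. Exons of Hoxaas3 overlap 586 bases of Hoxa7 and 297 of Hoxa3 on the opposite strand, so without a stated strand setting their counts are uncertain. Hottip and Hoxa11os, at the 5′ end, had no count. In the Hoxb cluster Hoxb5os had 11, 18 and 3 counts. Hotair of the Hoxc cluster and Haglr and Hoxd3os1 of the Hoxd cluster had none, nor had Mir615 and 5730457N03Rik. The listed rows Mira and 2610035D17Rik were not placed inside a cluster by the annotation and are not described.

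The miRNA genes of the clusters are shown because their seeds repeat across clusters while their rows were counted in 1 cluster of each family. The mature forms are from RefSeq (GRCm38.p6), with the seed, bases 2 to 8, in capitals.
miR-196b-5p: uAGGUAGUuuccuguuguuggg
miR-196a-5p: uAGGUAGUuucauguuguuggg
miR-10a-5p: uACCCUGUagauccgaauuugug
miR-10b-5p: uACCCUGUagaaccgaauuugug
The miR-196 forms share a seed and differ by C12A, counted from 1 at the 5′ end of miR-196b-5p, and the miR-10 forms share a seed and differ by U12A, counted in miR-10a-5p. The row Mir196b, which lies within the exons of Hoxa9, had 18, 10 and 17 counts in libraries 1, 2 and 3, and Mir196a-1 in the Hoxb cluster and Mir196a-2 in the Hoxc cluster had none. Mir10a, beside Hoxb4, had 2, 4 and 4 counts, and Mir10b in the Hoxd cluster had none. With inserts of about 400 bp these rows count longer transcripts across the hairpins and not mature miRNAs.

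Other TALE genes were few. Of 9 listed, 3 reached 1 CPM: Tgif1 at 70.3 ± 5.70, Pknox1, a partner of Pbx proteins, at 69.1 ± 4.53 and Tgif2 at 15.6 ± 2.30 CPM. Pknox2, Irx1, Irx2, Irx3, Irx5 and Mkx had no count in any library.
Genes that keep Hox clusters on or off were mostly well expressed. Of 24 listed, 21 reached 1 CPM, against 53.1% of all gene rows, and the median of the list was 66.8 CPM. The highest were Kmt2a, the MLL histone methyltransferase that maintains Hoxa expression, at 949, 797 and 617 CPM in libraries 1, 2 and 3, and Kat6a, a histone acetyltransferase, at 392, 334 and 315 CPM. Both were highest in library 1, and their part in the Hox values was not tested. Ezh2, the methyltransferase of Polycomb repressive complex 2, was at 228 ± 11.7 CPM and was lowest in library 1. Other genes of the list went both ways. The Polycomb genes Bmi1 and Cbx2 were highest in library 1, at 76.9 and 39.7 CPM there. Mllt10 and Aff1 were lowest in that library, at 182 and 192 CPM. The caudal genes Cdx1, Cdx2 and Cdx4, which act upstream of Hox genes in embryos, had no count.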

How the data were processed

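RNA was measured in 3 control HSPC libraries, which per the labels' protocols started from 10 ng RNA, were amplified by NuGEN Ovation chemistry (oligo-dT plus random primers) and were sheared to 400 bp inserts. The authors deposited unnormalized counts of reads, 1 row for each gene symbol. Per the submitters' processing notes, TopHat2 2.0.9, HTSeq and DESeq2 were used with mm10. The gene model and strandedness were not given in the sources used here. Reads in genes were 38.2, 34.1 and 40.0% of all entries in libraries 1, 2 and 3, and in no gene 43.5, 48.4 and 42.9%. Rn45s, the ribosomal precursor, took 11.8, 8.20 and 7.91% of gene counts. The 92 ERCC and 5 category rows were left out.

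CPM were computed from the deposited counts on gene-row totals; logs were log2(CPM + 0.5). Genes averaging 1 CPM or more were tested, by a chi-square (2 degrees of freedom) on the counts and by an F test of edgeR's quasi-dispersion over its trend (TMM scaling, intercept-only robust fit, common prior degrees of freedom), both Benjamini-Hochberg adjusted at 0.05. Tested on simulated counts of 12965 genes with 200 genes changed in library 1, the chi-square test recovered 95.7% of 2-fold and 99.0% of 4-fold changes on read-counting noise, and the edgeR test 36.7 and 84.3% on counts with the spread of these libraries. Amplified reads are not independent molecules. Exon lengths, positions and overlaps came from GENCODE M21 (GRCm38, the assembly of mm10), which matched all 46 members.

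Members at 1 CPM or more are named with their values; values of 2 members are not reported here, though they enter the counts and sums over members. From the lists of other TALE genes, Hox regulators and cluster neighbours, the 2 highest genes, those at 0 and rows inside or beside a cluster are named; further genes, cell type markers among them, were chosen after their values were seen. The members and lists were chosen with earlier results of these data known. Alternatives were TMM and DESeq2 scaling, totals without Rn45s, other minima and pseudocounts, length scaling and leaving out each library. Software was R 4.3.3, edgeR 4.0.16, DESeq2 1.42.0, Python 3.11.15, NumPy 2.4.6 and pandas 2.3.3.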

Additional observations from a re-analysis of the deposited data

How the results depend on the processing

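The number of members at 1 CPM or more was 19 with TMM or DESeq2 scaling, 20 with totals without Rn45s, 21 at a minimum of 0.5 CPM, 14 at 5 CPM, and 18 to 19 when a library was left out. With no minimum, 32 members had a count, and leaving out members whose exons overlap another row, an alternative chosen after seeing the data, gave 14. Per kilobase the Hoxa and Hoxb shares of Hox transcripts were 77.95 and 21.5%, and over members at 1 CPM or more the Hoxc share was 0%, by construction. The chi-square test called 11 to 14 members when a library was left out (11 without library 1), while the share of all genes called fell to between 51.4 and 67.3%, against 82.6%; it called 18 under every scaling. No member passed the variability test under any setting. With the longest transcript as length, chosen after seeing the data, 3 neighbouring pairs in the order of levels had separate ranges, against 6; the cause was not tested. The median shift of library 2 was 0.14 without library 1 and -0.17 without library 3, against -0.03, and that of library 3 was -0.14 without library 1, against -0.25. Library 1 held the highest value of 13 members under every scaling. Of the 46 member levels, 4 moved by more than 1 SD without Rn45s and none with TMM or DESeq2 scaling. Without library 1, Hoxb7 averaged 0.825 CPM, against 2.15, and Hoxb8 0.0699 CPM, against 0.350. No paired analysis was possible because the study's labels give 1 group here. Depth limits the silent members: 0 counts allow up to 0.120 CPM.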

Other observations

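In CPM, not scaled by length, several genes that flank the Hox clusters had higher levels than most cluster genes. Skap2, beyond the 3′ end of the Hoxa cluster on chromosome 6, was at 175 ± 23.5 CPM (SD, n = 3), and Hibadh, beyond the other end of that cluster, at 39.9 ± 6.97 CPM, while Evx1, the homeobox gene next to Hoxa13, had no count in any library. Beside the Hoxd cluster, which had 4 counts over the 3 libraries, Mtx2 was at 31.4, 36.9 and 38.0 CPM and Lnp at 65.0, 72.6 and 80.9 CPM, and Evx2 had no count. Skap1, beyond the 3′ end of the Hoxb cluster, was low at 0.564 ± 0.753 CPM. Calcoco1 and Smug1, on the chromosome of the Hoxc cluster, were at 60.05 ± 11.8 and 18.9 ± 3.46 CPM. These genes have roles outside patterning, such as Hibadh in valine breakdown and Mtx2 in mitochondrial protein import.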
